A study of Mus musculus with 69 samples.

Results

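Glycolysis was followed through 10 genes, Slc2a1, Slc2a3, Hk1, Hk2, Pfkp, Aldoa, Pgk1, Pkm, Ldha and Pdk1, which were taken by name from a count table of 16263 genes and were all found in it. All 10 passed the filter on low counts, so none of them was lost before testing. mRNA-seq and ATAC-seq, an assay of open chromatin, were each performed on 6 libraries of mouse embryonic stem cells (ESCs), with 2 biological replicates of wild-type (WT) cells and 2 of each of the H3.3K27R clones Mut18 and Mut43. All cells were J1 ESCs of the 129S4/SvJae background, derived from the inner cell mass, grown on feeder cells and then passaged without feeders before harvest. In both clones, lysine 27 of the histone variant H3.3 was replaced by arginine by CRISPR-Cas9 editing of H3f3a and H3f3b, so that H3.3 could not be acetylated there. The series asks what acetylation of H3K27 contributes to transcription, and here the comparison is between WT and mutant cells for the enzymes that break down glucose. Each mutant line is 1 clone, so effects of the edit and of clonal derivation cannot be told apart within a line. Anything else that both clones share against WT cannot be told apart from the edit either.

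Glycolysis converts glucose to pyruvate in the cytosol. Glucose enters through facilitative transporters, is trapped by hexokinase, committed to breakdown by phosphofructokinase, split by aldolase and oxidised, with ATP made by phosphoglycerate kinase and pyruvate kinase. Pyruvate is then reduced to lactate by lactate dehydrogenase or enters the mitochondrion, a branch that pyruvate dehydrogenase kinase closes. Most steps are catalysed by several isoenzymes encoded by separate genes, and hypoxia-inducible factors (HIFs) and Myc proteins are known activators of many of them. Naive mouse ESCs use glycolysis together with respiration, whereas primed pluripotent cells lean more heavily on glycolysis.

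Each mRNA-seq library held from 14992756 to 15143998 counted reads. H3f3a stood at 698 and 726 counts-per-million (CPM) in WT and at 560 to 635 in the mutant libraries, and H3f3b at 822 and 823 in WT and at 774 to 900 in the mutants. Both edited genes were transcribed in every library, and since the edit exchanges a codon, their levels do not check it. ESC identity was checked with 8 markers, all of them present. By the test described below, 5 of them were higher in the mutants and 2 were lower. Over all tested genes, 23.5% were higher and 24.5% lower by that test. Pou5f1 (Oct4) stood at 803 and 851 CPM in WT and at 664 to 705 in the mutants. Of 10 fibroblast markers for feeder cells, 9 passed the filter, 6 were lower in the mutants and none was higher. Their summed level was 292 and 212 CPM in WT against 144 to 186 in the mutants, and it was highest in WT replicate 1, where Col3a1 reached 56.0 CPM. Lum, a defining fibroblast marker, lay between 0 and 1.10 CPM. In bulk RNA, a change in cell number of a type and a change in RNA per cell cannot be told apart.

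The regulatory sequence bears on these genes because open chromatin was measured at their start sites. The promoter set used held 250 bases upstream of a RefSeq start for 9 of the 10 genes, 15 such promoters in all, and none for Slc2a3. Each stretch printed here is the longest part of its 250 bases without an exon of a coding transcript. Positions are on GRCm38 (the same build as mm10), and letters run 5′ to 3′ on the strand of the gene. The first Hk1 stretch lies downstream of other annotated Hk1 starts. Capitals mark the core letters of a HIF response element, ACGTG or GCGTG, searched on both strands, so that adjoining cores merge and the palindromic E-box CACGTG holds overlapping cores. The first pair contrasts the part of the Hk1 promoter before its exon, where an ATAC-seq peak lay in all 6 libraries, with the upstream Hk1 promoter, where none did. Pfkp is shown as the gene with the largest change, Ldha as the one with most cores, and Pgk1 as the one with the strongest peaks.
Hk1, with a peak, chr10:62340543-62340671, minus strand: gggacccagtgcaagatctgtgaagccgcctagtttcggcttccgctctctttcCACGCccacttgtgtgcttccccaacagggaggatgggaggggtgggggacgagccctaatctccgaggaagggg
Hk1, without a peak, chr10:62379909-62380158, minus strand: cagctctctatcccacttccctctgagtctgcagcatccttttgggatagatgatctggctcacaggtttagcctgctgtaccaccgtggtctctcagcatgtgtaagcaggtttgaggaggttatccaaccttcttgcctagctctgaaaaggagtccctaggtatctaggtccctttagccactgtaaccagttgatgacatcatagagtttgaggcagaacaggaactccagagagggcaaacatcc
Pfkp, chr13:6648778-6649021, minus strand: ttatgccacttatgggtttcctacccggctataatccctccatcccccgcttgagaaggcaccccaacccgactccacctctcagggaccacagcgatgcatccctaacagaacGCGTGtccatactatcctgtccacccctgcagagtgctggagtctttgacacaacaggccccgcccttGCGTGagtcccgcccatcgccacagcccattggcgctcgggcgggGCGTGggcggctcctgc
Ldha, chr7:46845554-46845803, plus strand: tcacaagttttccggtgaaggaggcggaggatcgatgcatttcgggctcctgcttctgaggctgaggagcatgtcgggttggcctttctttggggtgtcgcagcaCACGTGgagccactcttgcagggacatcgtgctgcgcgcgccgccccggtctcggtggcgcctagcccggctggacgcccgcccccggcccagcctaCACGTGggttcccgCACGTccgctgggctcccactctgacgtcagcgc
Pgk1, chrX:106186850-106187099, plus strand: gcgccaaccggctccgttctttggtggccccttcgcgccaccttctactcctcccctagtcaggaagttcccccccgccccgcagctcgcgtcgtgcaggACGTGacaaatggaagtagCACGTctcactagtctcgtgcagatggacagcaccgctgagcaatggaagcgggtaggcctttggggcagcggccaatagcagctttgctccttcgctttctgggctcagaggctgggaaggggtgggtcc

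In mutant ESCs, 2 of the 10 genes were higher than in WT (Hk1 and Pfkp), 4 were lower (Slc2a1, Slc2a3, Pkm and Ldha) and 4 did not pass the test (Hk2, Aldoa, Pgk1 and Pdk1). The test was edgeR's quasi-likelihood F-test with Benjamini-Hochberg adjustment over 14061 genes, called at an adjusted p under 0.05. By that rule 23.5% of all tested genes were higher and 24.5% were lower, 48.0% in all, so the number of changed genes among the 10 is near that of the transcriptome. All 4 mutant libraries lay above both WT libraries for the same 2 genes and below them for the same 4, as they did for 29.4% and 30.4% of all tested genes. None of the 10 changed more than 2-fold, a size that 8.93% of all tested genes passed. The pair that rose did so by 56.0% and 77.6%, and the 4 lower genes changed by between -7.83% (Pkm) and -14.1% (Slc2a3). The median log2 fold change of the 10 was -0.00, and that of all tested genes was also -0.00.

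**Figure D1:**
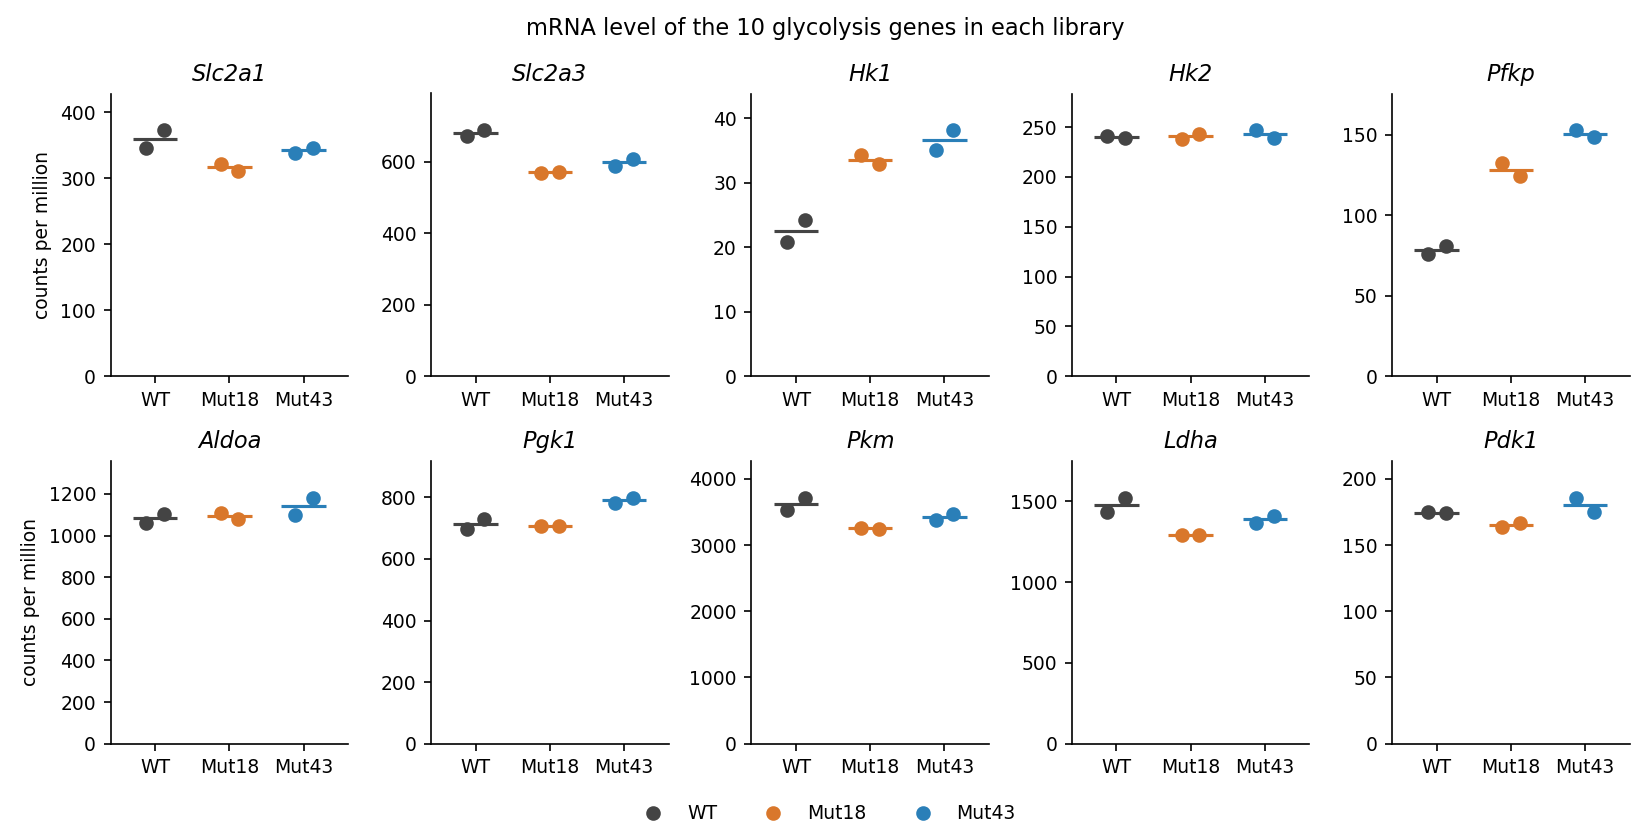
CPM (y axis, from 0) of the 10 genes in WT, Mut18 and Mut43, with 1 point per library and a line at the mean of the 2 replicates. All 4 mutant libraries lie above both WT libraries for Hk1 and Pfkp and below both for Slc2a1, Slc2a3, Pkm and Ldha.

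The mRNAs of the 2 glucose transporters among the 10 genes were slightly lower in the mutants. Slc2a3 encodes the high-affinity transporter GLUT3, and it stood at 673 and 688 CPM in WT, against 569 and 572 for Mut18 and 589 and 608 for Mut43. No mutant library reached the lower WT library. On the log2 scale it fell by 0.22 (adjusted p = 6.14e-05 by edgeR, with a 95% confidence interval of the log2 fold change from -0.30 to -0.14, the interval given in brackets hereafter), and each clone passed alone, with -0.25 in Mut18 and -0.19 in Mut43. Slc2a1, which encodes the widespread basal transporter GLUT1, gave 346 and 373 CPM in WT, against 322 and 311 for Mut18 and 339 and 346 for Mut43. The highest Mut43 library lay just under the lower WT library. Its log2 fold change was -0.13 (-0.22 to -0.03, adjusted p = 0.0271 by edgeR), at -0.18 in Mut18 and -0.07 in Mut43, where the adjusted p was 0.211. The Slc2a1 call was lost without WT replicate 2 (adjusted p = 0.382), without Mut18 replicate 1 (0.0525) and without Mut18 replicate 2 (0.0908). Scaling without chromosome 11 genes (0.0752) and testing with no filter on low counts (0.05) also ended it.

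At the hexokinase step, the minor isoenzyme rose and the major one did not pass the test. Hk1 encodes the hexokinase of most adult tissues and was counted at 20.7 and 24.3 CPM in WT, against 34.2 and 33.0 for Mut18 and 35.1 and 38.1 for Mut43. All mutant libraries exceeded both WT libraries. The log2 fold change was 0.64 (0.47 to 0.81, adjusted p = 1.73e-06 by edgeR), or 56.0% higher, with 0.58 in Mut18 and 0.70 in Mut43. Hk2, the insulin- and HIF-responsive hexokinase of growing cells, gave 241 and 239 CPM in WT against 238, 243, 247 and 239 in the mutants. The groups overlapped, and the log2 fold change was 0.01 (-0.07 to 0.09, adjusted p = 0.808).

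Pfkp had the largest change of the 10. It encodes the platelet isoform of phosphofructokinase, which commits sugar to glycolysis, and was counted at 76.1 and 80.9 CPM in WT, against 133 and 124 for Mut18 and 153 and 148 for Mut43. The 3 lines did not overlap, with WT lowest and Mut43 highest. The log2 fold change against WT was 0.83 (0.69 to 0.97, adjusted p = 3.32e-09 by edgeR), or 77.6% higher, and it lay between 0.79 and 0.88 under the 13 alternatives tried. The 3′ end of Pfkp overlaps that of Pitrm1 on the opposite strand, and whether counting used strand is not given in the sources used here. Pitrm1 itself stood at 156 and 162 CPM in WT and at 152 to 169 in the mutants, with a log2 fold change of 0.01 (adjusted p = 0.918).

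The abundant enzymes of the middle of the pathway changed little. Aldoa, the main aldolase of these cells, gave 1061 and 1105 CPM in WT, against 1107 and 1082 for Mut18 and 1099 and 1181 for Mut43. The lines overlapped, and the log2 fold change of 0.05 did not pass the test (-0.04 to 0.13, adjusted p = 0.36). Aldoa overlaps Fam57b on the opposite strand, which was counted at only 1.89 to 3.63 CPM. Pgk1, the X-linked phosphoglycerate kinase, gave 697 and 729 CPM in WT, against 706 and 706 for Mut18 and 782 and 799 for Mut43. Mut18 lay within the WT range and Mut43 above it. Over both clones the log2 fold change was 0.07 (-0.03 to 0.17, adjusted p = 0.244), and in Mut43 alone it was 0.15 (0.06 to 0.23, adjusted p = 0.00454 by edgeR). Tested genes of chromosome X had a median log2 fold change of -0.14 in the mutants.

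The mRNAs of the last steps fell slightly. Pkm encodes pyruvate kinase M1 and M2, which share most exons and were counted together, and it stood at 3526 and 3714 CPM in WT, against 3259 and 3245 for Mut18 and 3375 and 3468 for Mut43. All 4 mutant libraries lay below both WT libraries, and the 2 of Mut43 lay nearest to them. The log2 fold change was -0.12 (-0.19 to -0.04, adjusted p = 0.0103 by edgeR). Ldha, which turns pyruvate into lactate, gave 1433 and 1522 CPM in WT, against 1292 and 1290 for Mut18 and 1369 and 1407 for Mut43. Its log2 fold change was -0.14 (-0.23 to -0.06, adjusted p = 0.00668 by edgeR). Without WT replicate 2 the adjusted p became 0.199 for Pkm and 0.15 for Ldha, and the number of genes called lower went from 4 to 1, Slc2a3. Leaving out Mut18 replicate 2 gave 2 lower genes, with Pkm at an adjusted p of 0.0508. Leaving out WT replicate 1, the library with most fibroblast marker RNA, gave 4 lower and 2 higher.

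Pdk1, the kinase that switches off pyruvate dehydrogenase, showed no change that passed the test. Its level was 175 and 174 CPM in WT, against 164 and 167 for Mut18 and 186 and 175 for Mut43. The clones lay on opposite sides of WT, with log2 fold changes of -0.08 in Mut18 and 0.05 in Mut43, neither of which passed (adjusted p = 0.175 and 0.413). Over both clones the value was -0.01 (-0.11 to 0.08, adjusted p = 0.822). Together the 10 genes took 0.842% and 0.878% of all counted reads in WT and 0.772% to 0.828% in the mutants.

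Taken one clone at a time against WT, 6 of the 10 genes changed in Mut18 and 4 in Mut43, where 41.3% and 46.8% of all tested genes did. Hk1, Pfkp and Slc2a3 passed in both clones, and both comparisons share the WT libraries. The clones were then tested against each other. All 10 genes had a higher fitted level in Mut43 than in Mut18, with a median log2 difference of 0.11 against -0.00 over all tested genes, but only Pfkp passed the adjusted threshold, which 0.327% of all tested genes passed. The Pfkp difference was 0.23 (0.13 to 0.33, adjusted p = 0.0362 by edgeR), and 5 of the 10 genes had an unadjusted p under 0.05, as 8.52% of all tested genes did. The Pfkp call between clones was lost when any single Mut18 or Mut43 library was left out (adjusted p from 0.151 to 0.426) and in DESeq2 (0.12). DESeq2 called Pgk1 instead, at a log2 difference of 0.16 (adjusted p = 0.0225).

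**Figure D2:**
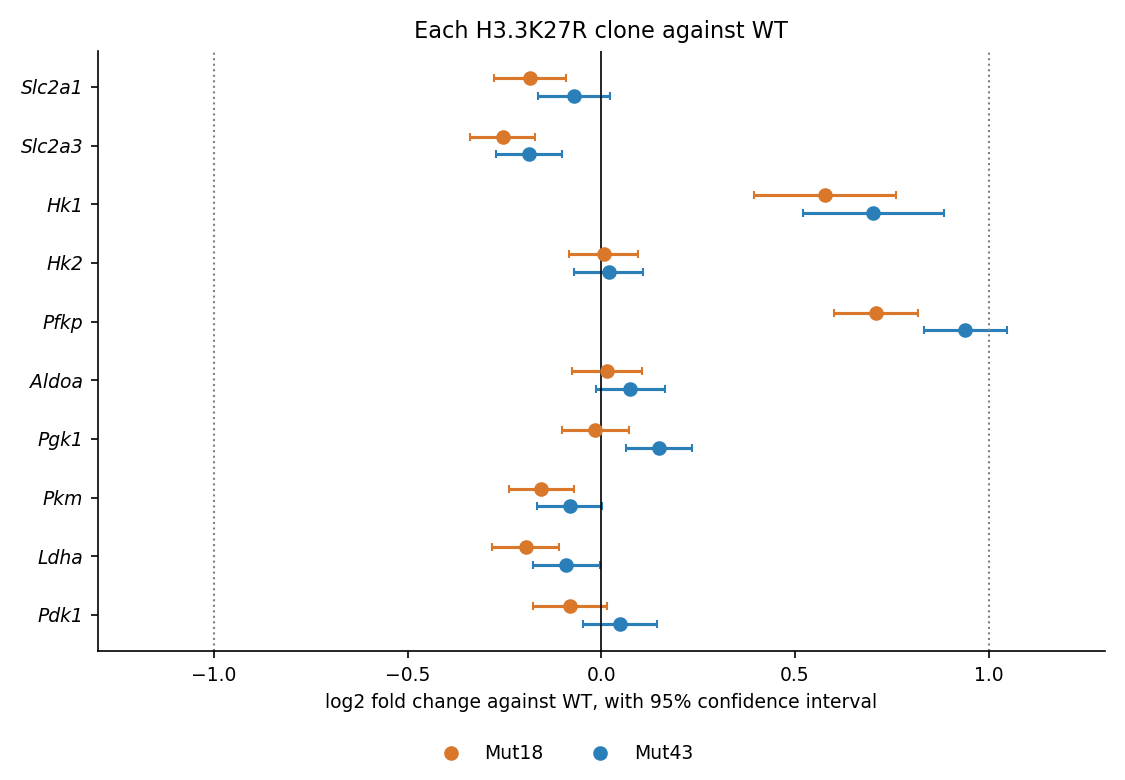
Log2 fold change against WT (x axis) of each of the 10 genes in Mut18 and Mut43, with 95% confidence intervals from the edgeR fit with 3 groups and dotted lines at a 2-fold change. Hk1 and Pfkp stand to the right in both clones, while the other 8 genes lie between -0.25 and 0.15.

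The 10 genes differed over a wide range in level once exon length was taken into account. In CPM per kilobase of exon, averaged over the 6 libraries, Pkm stood at 896, Ldha at 718, Aldoa at 606 and Pgk1 at 404. The transporters followed, with Slc2a3 at 156 and Slc2a1 at 132, then Hk2 at 43.7, Pdk1 at 31.4, Pfkp at 28.5 and Hk1 at 6.86. Each gene lay above the next in all 6 libraries except Pdk1 and Pfkp, which could not be ordered. Pdk1 was above Pfkp in 3 libraries, both WT libraries among them, since Pfkp rose from 18.2 and 19.3 in WT to 29.7 to 36.5 in the mutants.

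Of all tested genes, 23.5% were higher in the mutants and 24.5% were lower. Among the 19 other tested genes of the same steps as the 10, 8 were higher in the mutants, 4 were lower and 7 did not pass. These were 19 of 23 found in the table and 26 listed. The 4 lower genes were abundant enzymes of the trunk or a minor phosphofructokinase: Gapdh at -0.20 on the log2 scale (adjusted p = 5.06e-05 by edgeR), Tpi1 at -0.17 (0.00171), Pgam1 at -0.09 (0.044) and Pfkm at -0.31 (0.000404). Those higher were mostly isoenzymes of other tissues, namely Aldoc at 0.98 (4.55e-09), Eno3 at 0.67 (1.17e-06), Ldhb at 0.61 (4.26e-09), Pgam2 at 0.92 (0.00101) and the vesicular transporter Slc2a8 at 0.38 (0.0183), together with the isomerase Gpi1 at 0.13 (0.0191). Changes beyond 2-fold among these 19 genes were limited to Ldhc and Ldhal6b, which rose by 2.43 and 1.06 but stood at 2.53 CPM or less in every library. Aldoc, Eno3 and Pgam2 lie on chromosome 11, whose tested genes had a median log2 fold change of 0.39 in the mutants. By clone it was 0.38 in Mut18 and 0.38 in Mut43. None of the 10 genes lies there. Slc2a2, Pgk2 and Eno1 were not analysed here. Enolase was read instead from Eno1b, an intronless near-copy of Eno1 chosen after its values were seen, whose reads may belong to either. Eno1b stood at 1084 and 1148 CPM in WT and at 493 to 530 in the mutants. Its log2 fold change was -1.13 (adjusted p = 8.32e-15 by edgeR).

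**Figure D3:**
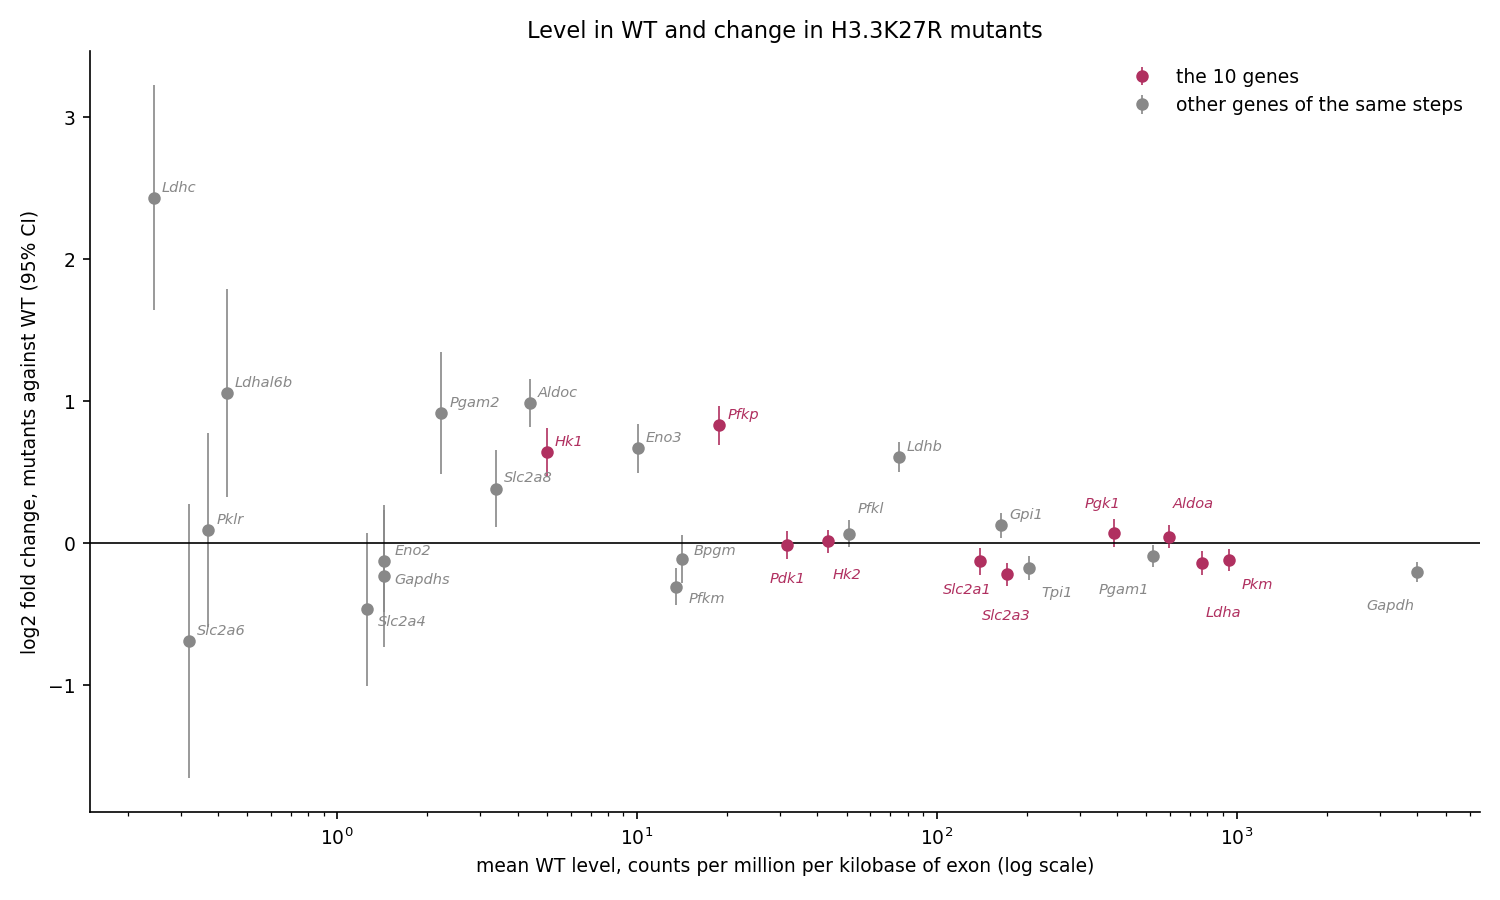
Mean WT level in CPM per kilobase of exon (x axis, log scale) against the log2 fold change between mutants and WT (y axis, bars for the 95% confidence interval) for the 10 genes and 19 other tested genes of the same steps. Plotted genes above 100 on the x axis lie within 0.22 of no change, while Hk1, Pfkp, Aldoc, Eno3 and Ldhb lie lower on the x axis and at 0.61 or above on the y axis. Eno1b, with a WT level of 635, is not plotted.

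The shares of isoenzymes in the mRNA of a step did not overlap between WT and mutant libraries at several steps, without a test of the shares themselves. Hk1 made up 9.52% and 11.03% of the summed mRNA of Hk1, Hk2, Hk3 and Hkdc1 per exon length in WT and 14.2% to 16.3% in the mutants, while Hk2 went from 88.7% and 90.3% to between 83.4% and 85.6%. Pfkp made up 22.3% and 22.7% of phosphofructokinase in WT and 32.4% to 35.7% in the mutants. The share of the muscle form Pfkm was 15.9% and 16.5% in WT and 10.8% to 11.6% in the mutants, and the liver form Pfkl was the largest in all 6 libraries, at 61.3% and 61.4% in WT and 53.5% to 56.0% in the mutants. Ldha made up 90.9% and 91.2% of lactate dehydrogenase in WT and 85.4% to 85.9% in the mutants, where the heart form Ldhb took 13.8% to 14.3%. Of Aldoa and Aldoc together, the brain form Aldoc made up 0.728% and 0.739% in WT and 1.35% to 1.44% in the mutants, so that Aldoa remained the bulk of it in all 6 libraries. Among the glucose transporters, Slc2a3 took 53.9% and 54.7% in WT and 52.0% to 53.3% in the mutants. None of these ranges overlapped between genotypes. The share of Pkm in pyruvate kinase did overlap, at 99.9% or more in all 6 libraries. So did that of Slc2a1 among the transporters, at 43.3% and 44.9% in WT and 44.6% to 46.0% in the mutants. Pdk1 overlapped in its family too, at 53.5% and 56.1% in WT and 53.0% to 54.4% in the mutants. In level, all mutant libraries lay above both WT libraries for 29.4% of all tested genes and below for 30.4%. The summed phosphofructokinase level was 81.6 and 85.0 in WT and 91.5 to 103 in the mutants, in CPM per kilobase.

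**Figure D4:**
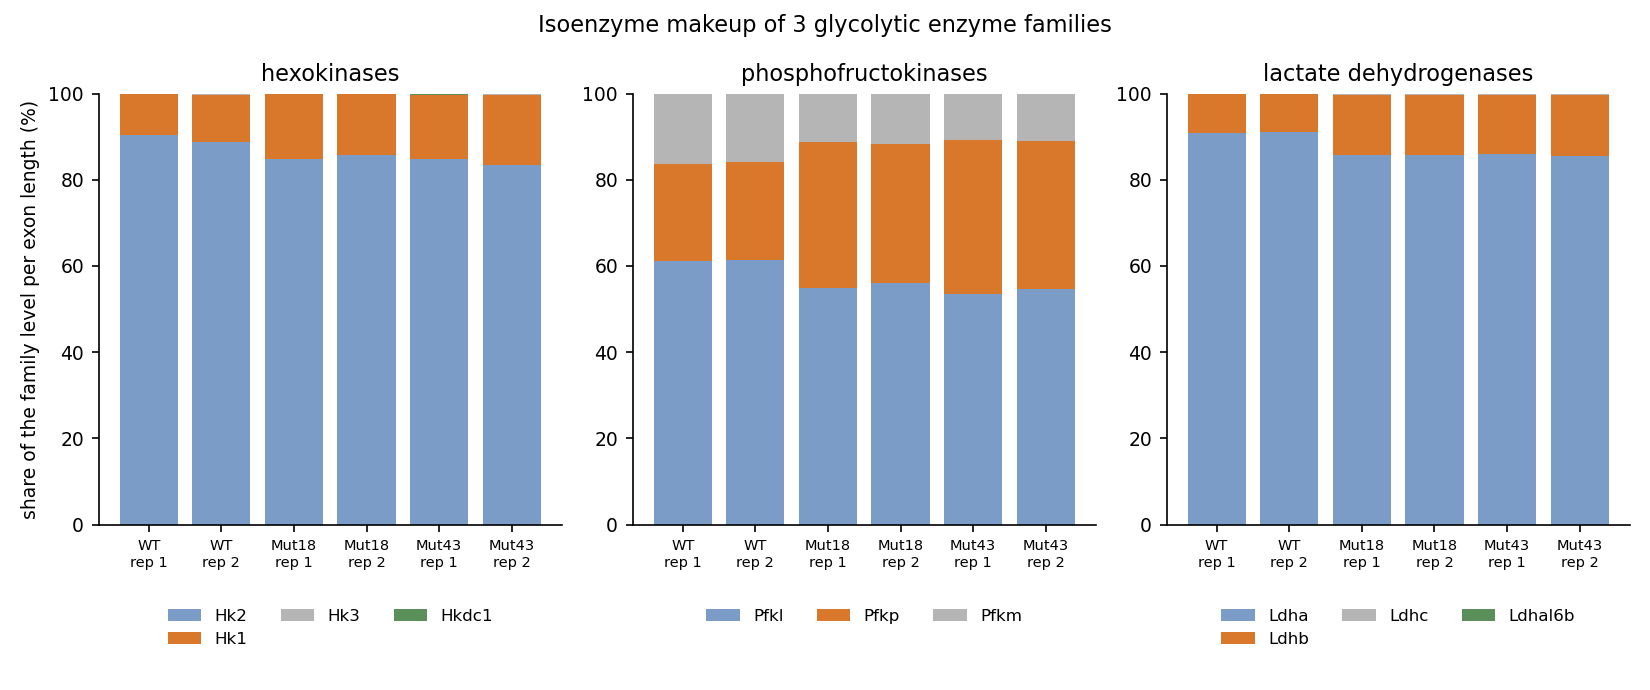
Share of each isoenzyme in the summed level per exon length of its family (y axis, percent), for hexokinases (Hk1, Hk2, Hk3 and Hkdc1), phosphofructokinases and lactate dehydrogenases, in each of the 6 libraries. Pfkp takes 22.3% and 22.7% in WT and at least 32.4% in each mutant library, and Hk1 and Ldhb also take larger shares in all 4 mutant libraries.

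ATAC-seq found an open promoter at every one of the 10 genes. A peak lay within 1000 bp of a start site in all 6 libraries for 10 of 10, and 86.7% of 13035 genes tested in mRNA-seq had one. With peaks restricted to a -log10 q of at least 20, 8 of the 10 remained. Peak height was read as the percentile of the authors' fold enrichment within the list of the same library, since the lists carry no read numbers. Pgk1 had the strongest peak at its start site, at percentiles 80.8 and 91.5 in WT and 93.0 to 97.1 in the mutants. Slc2a3 and Pkm had weak ones, at 13.04 to 29.2 and 12.8 to 23.5 over the 6 libraries, although Pkm has the highest mRNA level of the 10. Hk1 has 4 annotated start sites, and the only one with a peak within 250 bp was at chr10:62340542, in all 6 libraries, at 68.8 and 73.5 in WT and 60.1 to 76.9 in the mutants. The groups overlapped there. A further Hk1 peak at chr10:62358934-62359120, 572 bp from another annotated start, was called in 3 mutant libraries and in neither WT library. Whether this differs between the groups was not tested.

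For Pfkp, the peak at the start site ranked at 56.9 and 55.0 in WT and at 35.0 to 54.1 in the mutants. The lists hold from 63588 to 78536 peaks, and in fold enrichment itself the groups overlapped, at 7.29 and 8.17 in WT and 6.74 to 7.74 in the mutants. The Slc2a1 peak ranked at 24.3 and 33.8 in WT and at 40.4 to 57.2 in the mutants, and its fold enrichment did not overlap either, at 5.90 and 6.12 in WT and 6.91 to 8.18 in the mutants. The Ldha peak ranked at 31.9 and 37.5 in WT and at 15.6 to 29.2 in the mutants, but its fold enrichment overlapped, at 6.10 and 6.58 in WT and 5.26 to 6.37 in the mutants. Slc2a1 was not alone in this. Rank and fold enrichment also did not overlap for Hk2, with fold enrichments of 6.93 and 8.28 in WT and 8.35 to 9.01 in the mutants. The same held for Pgk1, at 10.5 and 11.2 against 12.3 to 14.2. For Aldoa the ranks alone did not overlap, and for Slc2a3, Hk1, Pkm and Pdk1 both measures overlapped. Each gene was read here at 1 start site. Aldoa, Ldha and Hk2 have another start with a peak, where ranks overlapped. These were 65.5 and 81.5 in WT against 74.1 to 81.1 in the mutants for Aldoa. For Ldha they were 11.5 and 12.5 against 9.24 to 14.6, and for Hk2 8.75 and 10.3 against 9.31 to 22.3. Fold enrichment at that Hk2 start did not overlap, at 4.28 and 4.79 against 4.90 to 5.77. Differences in peak height between lists were not tested, and the share of all peaks without overlap was not counted. The whole list of WT replicate 1 had a median fold enrichment of 6.86, and the other lists had 7.46 to 7.80. Within the genes and 10 kb on either side, 65 merged open regions were found, and 32 of them had a peak in all 6 libraries. Only 1 was seen in both WT replicates but in neither clone, inside Hk2 at chr6:82737268-82737515. Another 1, near Slc2a3 at chr6:122720023-122720320, was seen in both replicates of both clones but not in WT.

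**Figure D5:**
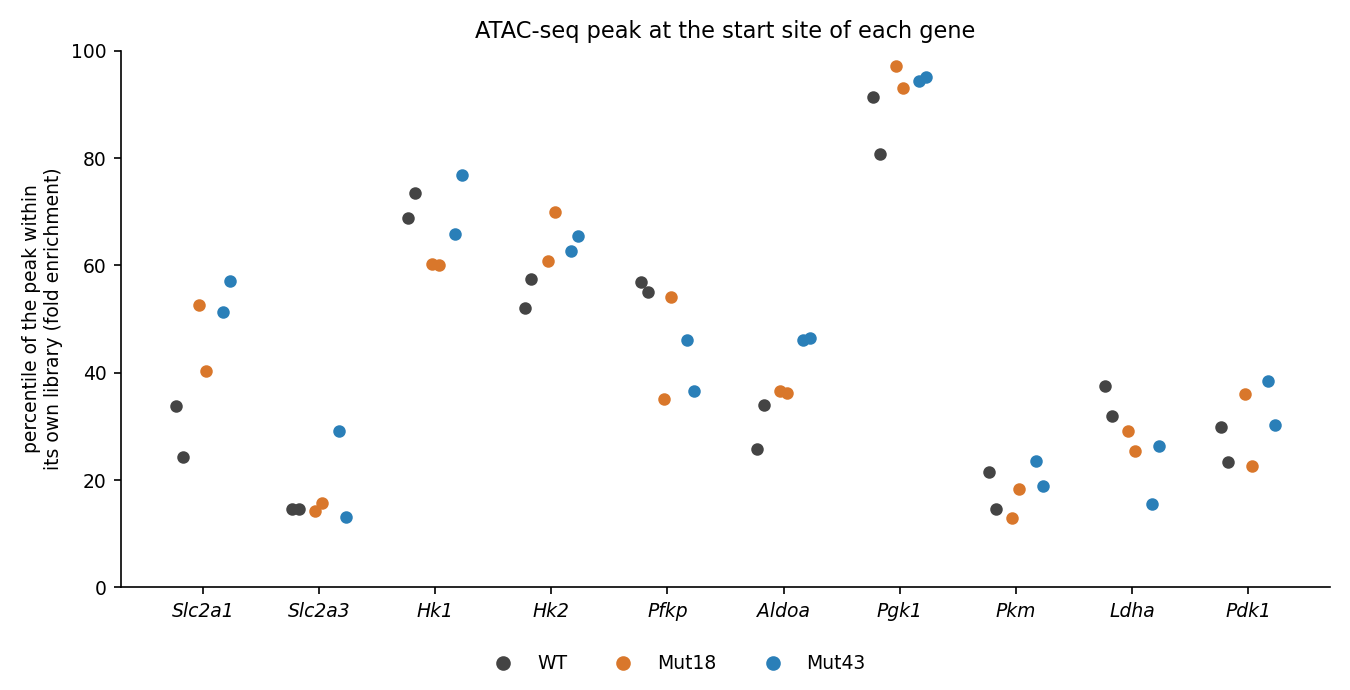
Percentile of the ATAC-seq peak at the start site of each of the 10 genes (y axis), ranked by fold enrichment among all peaks of the same library, with 1 point per library. Pgk1 lies at 80.8 or above in all libraries, and Slc2a3 and Pkm lie at 29.2 or below.

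HIF core letters were common in these promoters. Of the 15 RefSeq promoters, which cover 9 of the 10 genes, 11 held at least 1 core in 250 bases, and 38.6% of 32851 mouse promoters of that length did. Among the 11 with an ATAC-seq peak in all 6 libraries, 10 held a core, the exception being Pkm, while 1 of the 4 without any peak did. A pair of Aldoa windows overlap and share 1 core, and with overlapping windows counted once, 10 of 14 held a core, and 9 of the 10 with a peak. The GC box GGGCGG, searched on both strands as well, was found in 9 of the 15 and in 32.7% of all promoters. The windows with a peak were 54.4% to 69.6% G or C, those without one 38.4% to 61.6%, and the median of all promoters was 52.4%. An E-box CACGTG, the letters Myc proteins bind, was found in 1 of the 15, the Ldha promoter printed above, and in 6.02% of all promoters. In promoters with a peak, the rising genes Hk1 and Pfkp carry 3 cores each. Of the falling genes, Ldha carries 5 and 1 in its promoters, Slc2a1 2 and Pkm 0. The uncalled genes Hk2 and Pgk1 carry 2 each, and Aldoa and Pdk1 1. Cores that overlap each other were counted separately. The printed stretch of Hk1 holds 1 of its 3, and the others lie within an annotated exon. A match to these letters is a description of the sequence and does not show binding.

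Of the known activators, Hif1a fell by 0.14 on the log2 scale (adjusted p = 0.00481 by edgeR), from 228 and 227 CPM in WT to between 204 and 209 in the mutants. Its partner Arnt rose by 0.26 (0.000187) and the related Epas1 (HIF-2α) by 0.63 (7.65e-08), while Arnt2 fell by 1.18 (2.13e-07). Over the HIF pathway list, 4 of 10 genes rose and 3 fell, the others being Egln3 at 0.43 (0.000816), Vhl at 0.25 (0.0213) and Hif3a at -0.52 (0.000736). Of all tested genes, 23.5% rose and 24.5% fell, the shares to set beside this and the next list counts. HIF targets outside glycolysis rose in 7 of 16 cases and fell in 1, with Ak4 at 0.97 (2.48e-11), Ero1l at 0.35 (5.71e-06), Kdm3a at 0.28 (1.37e-05) and Higd1a at -0.24 (0.0259). Vegfa did not pass the test, at 0.00. In the Myc family, 2 of 6 genes rose, Mnt by 0.16 (0.0233, on chromosome 11) and Mycl by 0.24 (0.0402). The one that fell was Mycn, by 0.21 (0.000783), and Myc, at 92.0 to 101 CPM over the libraries, gave -0.06 (0.314).

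Of the regulators that set glycolytic flux, Pfkfb3, which makes the activator of phosphofructokinase, fell by 0.70 on the log2 scale (adjusted p = 2.08e-07 by edgeR), from 41.7 and 37.4 CPM in WT to 22.8 to 26.4 in the mutants. Txnip, an inhibitor of glucose uptake, rose by 0.56 (1.76e-08), from 85.3 and 90.1 CPM to between 120 and 135. The gluconeogenic enzymes Fbp2 and Pck2 rose as well. Fbp2 did so by 1.14 (0.000431), from 1.49 and 1.17 CPM to between 2.66 and 3.16, the only change over 2-fold in this list of regulators, and Pck2 by 0.48 (0.000767), from 8.56 and 9.11 CPM to between 11.4 and 12.7. Tigar, which lowers the same activator as Pfkfb3 raises, rose by 0.26 (0.000803). In this list, 4 of 9 tested genes rose and 1 fell, where 23.5% of all tested genes rose and 24.5% fell. Of 18 genes of lactate and pyruvate fate, 3 rose and 2 fell, led by the lactate exporter Slc16a3 at 0.52 (4.01e-08, on chromosome 11) and by Dlat, a subunit of pyruvate dehydrogenase, at -0.16 (0.00494). In the branches that leave glycolysis, 6 of 12 genes rose and 3 fell, with the serine and one-carbon enzymes Shmt1 at 0.55 (6.41e-09), Shmt2 at 0.44 (1.2e-07) and Psat1 at 0.33 (1.58e-06), and with G6pdx, the entry to the pentose phosphate pathway, at -0.31 (4.73e-06).

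Markers of pluripotent state also differed between WT and mutants, where 23.5% of all tested genes rose and 24.5% fell. Of 10 naive ESC genes, 9 rose in the mutants, among them Dppa3 by 1.85 and Zfp42 by 0.72 on the log2 scale, and their summed level went from 1277 and 1308 CPM in WT to between 1866 and 2044. Of 9 tested genes of the primed state, 8 fell, among them Fgf5 by 2.58 and Pou3f1 by 1.56, with a summed level of 976 and 1016 CPM in WT against 587 to 597 in the mutants. The part of cell state, of fibroblast RNA or of chromosome 11 in the levels of the 10 glycolysis genes was not tested.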

How the data were processed

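mRNA-seq and ATAC-seq of WT, Mut18 and Mut43 ESCs (6 libraries each) were used, with samples assigned from their titles. For mRNA-seq, paired-end reads were placed on mm10 joined to dm6, and raw counts of reads on each gene were deposited. STAR, SAMtools, DESeq2, Bowtie2 2.3.4.2, deepTools 3.3.0 and MACS2 are named in the submitters' processing notes, while the counting program and annotation are not given in the sources used here. Deposited ATAC-seq peaks were called library by library. Their height is a fold enrichment and their confidence a deposited -log10 q. The peak lists do not give read depth, and the sequencing depths that the study lists were not used here.

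Counts were tested in R 4.3.3 with edgeR 4.0.16 (quasi-likelihood F-test, expression filter at a minimum count of 10, TMM scaling), WT (n = 2) against mutants (n = 4), and by line in a fit with 3 groups. The procedure was tested on simulated data. Levels per length used union RefSeq exons. DESeq2 1.42.0, other scalings and filters, a replicate term and each library left out were alternatives. Python 3.11.15, pandas 2.3.3, numpy 2.4.6 and matplotlib 3.10.9 were used for peaks, sequences and figures. Replicates differed by more than sampling noise, and with 2 WT libraries the intervals cover only the spread between these libraries.

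The 10 genes and the gene lists were chosen with earlier results of these data known. Some glycolysis genes of the list are not reported here and were left out of its counts and shares. Beside the 10, the text names glycolysis genes among the 3 highest of their step or changed over 2-fold, up to 4 genes per list and direction with the smallest adjusted p, and Hif1a, Arnt, Myc, Mycn, H3f3a and H3f3b. Vegfa, Pitrm1, Fam57b, Eno1b, Col3a1, Lum and Pou5f1 were chosen after their values were seen.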

Additional observations from a re-analysis of the deposited data

Results flagged for a closer look

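Pfkp was the only one of the 10 glycolysis genes whose level differed between the clones in edgeR's quasi-likelihood test of Mut43 against Mut18, by a log2 fold change of 0.23 (adjusted p = 0.0362), with both Mut43 libraries above both Mut18 libraries. Among the other genes read beside them, the clones also differed in Tbx3 (log2 fold change 0.38), H3f3b (0.19) and Col1a1 (-0.41), the last a fibroblast marker. Over 29 glycolysis genes examined for a mutant library standing apart from the other 3, 1 was found, the neuronal enolase Eno2, where Mut18 replicate 2 lay lowest at 3.29 CPM against 4.06 to 4.19 (gap over range 0.851). Chance marks about 1 in 20 such groups.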

How the results depend on the processing

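With 2 WT libraries, the calls of Slc2a1, Pkm and Ldha, each a change of under 10%, did not pass without WT replicate 2. The 2 higher genes and the count of 0 over 2-fold were the same under all 13 alternatives, DESeq2 included; of the 10 log2 fold changes, 118 of 130 alternative values kept their direction and call, and 8 lost a call (Slc2a1, Pkm or Ldha). The lower count ranged from 1 to 4 with a library left out, that for Mut18 from 4 to 6, for Mut43 from 3 to 4 and between the clones from 0 to 1. Library totals alone gave 7 changed genes in Mut43 and 0 between the clones, and no filter on low counts gave 0 between the clones; the cause was not tested. Signs turned for uncalled values only, with Hk2 at -0.027 under library totals and Pdk1 at 0.011 without chromosome 11 genes. Pdk1 also turned to 0.011 without Mut18 replicate 1 and to 0.003 without Mut18 replicate 2. With any library left out, Pdk1 ranged from -0.046 to 0.011. A replicate block gave 0 genes between the clones (Pfkp adjusted p = 0.0692) and changed no other count beyond 1.5 times. Replicate numbers share no labelled batch, and deviations of same-numbered libraries correlated at -0.12 (WT, Mut18), 0.09 (WT, Mut43) and -0.08 (Mut18, Mut43) over 8920 genes. Promoter peaks in all 6 libraries were found for 8 to 10 genes. The median level per exon length was 144 by union exons or by longest transcript. That median rests on Slc2a3 and Slc2a1, whose lengths are the same by either measure, so it could not show whether the choice matters.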
